A study of Mus musculus with 12 samples.

Results

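The comparison sets 4T1 cells taken from the lungs of old mice against 4T1 cells cultured in fluid extracted from the lungs of old mice, with 3 libraries in each group. Of the 26244 genes listed in either of the authors' count tables, the 20187 listed under the same Ensembl identifier in both were compared, and 13526 of these had enough counts to be tested. 4T1 is a mouse mammary carcinoma line that spreads to the lung. In the lung group, called in vivo old, 5000 cells carrying the fluorescent protein mNeonGreen had been given to Balb/c mice by tail vein, and 100000 tumour cells per library were sorted from the lungs after 4 weeks. In the culture group, called in vitro old IFE, cells spent 72 hours in RPMI medium without serum to which interstitial fluid extract (IFE) had been added at 25%, made from lungs with 4T1 metastases of old mice. The other 6 of the 12 libraries are the same pair of settings with young mice or IFE from young mice. The mice are labelled old or young without an age in months, and the titles of the culture libraries carry the letters shNT, left unexplained in the protocols. The labels do not say whether the 3 libraries of a group came from separate mice or wells, so p-values measure the spread between these libraries. Setting is also the batch label, and the lung cells were dissociated from tissue and sorted while the protocol names no sort for the cultured cells. Tissue, batch, serum and handling therefore cannot be told apart in any result here.

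IFE holds the soluble content of tissue fluid, whereas a tumour in the lung also meets host cells, matrix, blood flow and uneven oxygen. Cells answer such differences through known programs. Immediate early genes respond within minutes to growth factors and to stress, interferons switch on antiviral and antigen presentation genes, sterol shortage acts through SREBP2 on cholesterol synthesis, and a shortage of amino acids acts through ATF4 on amino acid synthesis and transport.

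Library totals ran from 11679046 to 18129164 counts in the 6 libraries. Variation between replicates, fitted as 1 value common to all genes, was 4.07% in old lung and 8.55% in old IFE culture, as biological coefficients of variation. Replicate 3 of the old IFE culture stood apart: its counts differed from those of replicates 1 and 2 with a chi-square per degree of freedom of 9.44 and 8.18, against 3.21 between replicates 1 and 2 and 2.31 to 2.49 among the old lung libraries. Without that library, no count of 2 or more higher or lower members of a gene list given below moved by more than 1.5 times. Log2 levels correlated across the 13526 genes with r = 0.897 between the group means, as a description across genes that share libraries. Genes on the mitochondrial genome took 1.1% to 1.12% of counts in lung and 1.07% to 1.25% in culture. The ribosomal RNA genes outside it took 0.102% to 0.118% in lung and 0.34% to 0.419% in culture.

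Levels are CPM, counts scaled to a common library size after correction for library composition, and fold changes are log2 of lung over culture with their standard error (SE). At an adjusted p under 0.05 in edgeR's quasi-likelihood test, 5109 genes (37.8%) were higher in lung and 5026 (37.2%) were lower. Since most genes differed at that threshold, the text counts a gene as higher or lower when edgeR's test against a fold of 2 gave an adjusted p under 0.05, and names other values as such. By that call 1920 genes (14.2%) were higher in lung and 864 (6.39%) were lower. When the authors' FPKM values were tested with limma, 51.6% of the genes past 2-fold were higher in lung, against 69% by counts. For 7395 genes (54.7%) the 95% interval of the fold lay wholly within 2-fold in both directions. The groups did not overlap for 10469 genes (77.4%). Among protein-coding genes, the median log2 fold change was -0.027, 0.039 and -0.0097 in the shortest, middle and longest of 3 equal classes by listed length. From the shortest to the longest class, 16.7%, 14.3% and 13.2% of genes were higher past 2-fold, and 7.72%, 5.99% and 4.94% were lower. The members and lists below are read against these shares.

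**Figure D1:**
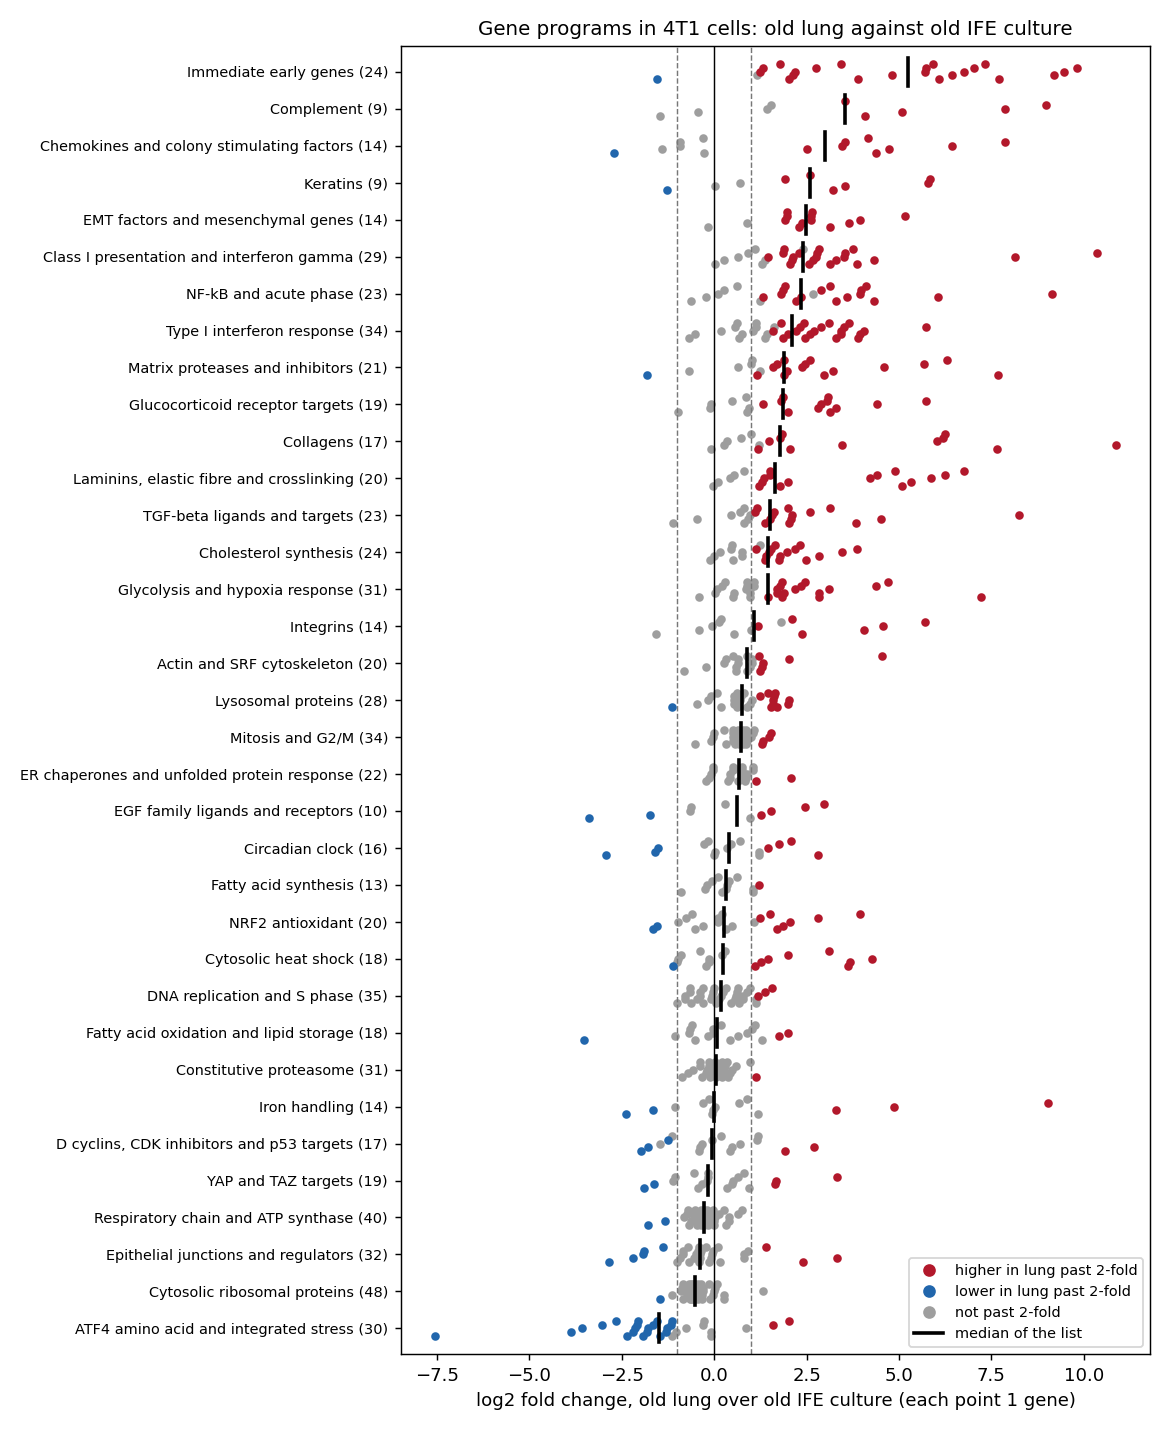
Log2 fold changes (x axis, old lung over old IFE culture) of the tested members of each gene program (y axis, number of tested genes in brackets). Red and blue points are past 2-fold, dashed lines mark 2-fold, black bars are list medians. Immediate early genes lie farthest to the right with a median of 5.25, and the ATF4 list farthest to the left with a median of -1.50.

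Epithelial genes that mark 4T1 cells were found in both settings. Epcam, an epithelial adhesion protein, was at 273, 283 and 269 CPM in the lung libraries and 154, 152 and 135 CPM in the culture libraries. The keratin Krt8 (ENSMUSG00000049382, chromosome 15, 101905133 to 101912917 in the file's coordinates, whose build is not given) was at 1908, 1932 and 1899.9 CPM in the lung libraries and 348, 325 and 272 CPM in the culture libraries. Cdh1, which encodes E-cadherin, was at 250.2, 241 and 238 CPM in the lung libraries and 472, 441 and 469.9 CPM in the culture libraries. All 3 genes were thus well detected in every library and no group overlapped the other. Krt8 was past 2-fold, with a log2 fold change of 2.60 (SE 0.094), whereas Epcam at 0.90 (SE 0.052) and Cdh1 at -0.93 (SE 0.042) were not.

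Markers of other cell types were also present in the lung libraries. The summed level of 24 macrophage and monocyte markers was 265 to 279 CPM in old lung, 8.78 to 11.5 CPM in old IFE culture and 1962 to 2032 CPM in young lung. Of these 24 markers, 14 had no count in the culture libraries or were not listed there, and the complement subunit C1qa, at 18.5, 16.7 and 14.7 CPM in old lung, was listed in the lung table alone. Class II antigen presentation genes summed to 346 to 365 CPM in old lung, 58.3 to 65.7 CPM in culture and 2248 to 2280 CPM in young lung. Cd74 and H2-DMa made up most of the culture sum, at 48.1 and 12.4 CPM against 236 and 18.6 CPM in old lung. The interval of H2-DMa lay within 2-fold. H2-Ab1 had no count in the old IFE culture, and H2-Aa, H2-Eb1 and H2-DMb1 were listed in the lung table alone. Neutrophil markers summed to 73.6 to 75.7 CPM in old lung and 85.3 to 97.25 CPM in young lung, and stayed under 1 CPM in culture. Fibroblast and pericyte markers summed to 834 to 853 CPM against 206 to 210.0 CPM, and to 699 to 740 CPM in young lung. The largest parts in old lung were Gsn, Pdgfra, Col1a1 and Col3a1, at 366, 147, 111 and 105 CPM on average. Gsn and Pdgfra were also found in culture, at 142 and 16.9 CPM. Lum, Tcf21, Mfap4 and Inmt averaged 0.855, 0.383, 2.77 and 3.69 CPM in old lung. Of 6 tested markers of that list 4 were higher past 2-fold and 1, Postn, was lower, at 10.5, 9.31 and 9.29 CPM in the lung libraries and 38.4, 42.9 and 54.7 CPM in the culture libraries. Endothelial markers summed to 167 to 169 CPM against 44.8 to 49.6 CPM, of which Flt1 averaged 93.9 and 40.1 CPM. In young lung their sum was 180 to 187 CPM. Of 10 tested endothelial markers 8 were higher past 2-fold. Egfl7 averaged 3.77 CPM in old lung against 5.52 CPM in culture, lower at an adjusted p under 0.05 but not past 2-fold. T and NK cell markers summed to 3.69 to 6.05 CPM in old lung and 4.95 to 5.66 CPM in culture, ranges that overlapped. Lck made up most of the culture sum, at 5 CPM against 2.28 CPM in old lung. Of the 15 markers found, 11 were listed in the lung table alone, among them Cd3e at 0.941 CPM in old lung. Dendritic cell markers summed to 21.09 to 26.85 CPM against 5.81 to 6.87 CPM. Of 2 tested, Batf3 was higher past 2-fold, at 3.67 against 0.721 CPM, and Zbtb46, at 10.98 against 5.2 CPM, was not. Itgax averaged 5.95 CPM in old lung, and Xcr1, Clec9a, Cd209a and Siglech averaged 0.0568 to 0.139 CPM. Flt3 averaged 0.354 against 0.563 CPM. Single markers past 2-fold included Cd14 and Csf1r of macrophages at 43.1 against 4.95 CPM and 14.1 against 0.456 CPM. Among them too was Ciita, the class II activator, at 10.6 against 0.219 CPM. S100a8, Hdc and Il1r2 of neutrophils were at 14.8 against 0.163 CPM, 5.81 against 0.0233 CPM and 4.32 against 0.07 CPM. Selp and Flt1 of endothelium were at 21.1 against 0.522 CPM and 93.9 against 40.1 CPM, and Gsn, also made by fibroblasts, at 366 against 142 CPM. The alveolar genes Sftpb and Slc34a2 were at 15.4 against 0.508 CPM and 8.49 against 0.0176 CPM. Alveolar and airway markers summed to 249 to 257 CPM in old lung, 124 to 128 CPM in culture and 175 to 178.5 CPM in young lung. Of 10 tested 7 were higher past 2-fold. Abca3, at 131 against 119 CPM, and Foxj1, at 4.01 against 4.45 CPM, had intervals within 2-fold. Msln, a mesothelial gene that tumours also make, was at 281, 271 and 275 CPM in the lung libraries and 304, 342 and 311 CPM in the culture libraries. Fewer cells of a type and less RNA per cell cannot be told apart in such bulk libraries. The part of these cells in the results below was not tested except where a value is given.

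**Figure D2:**
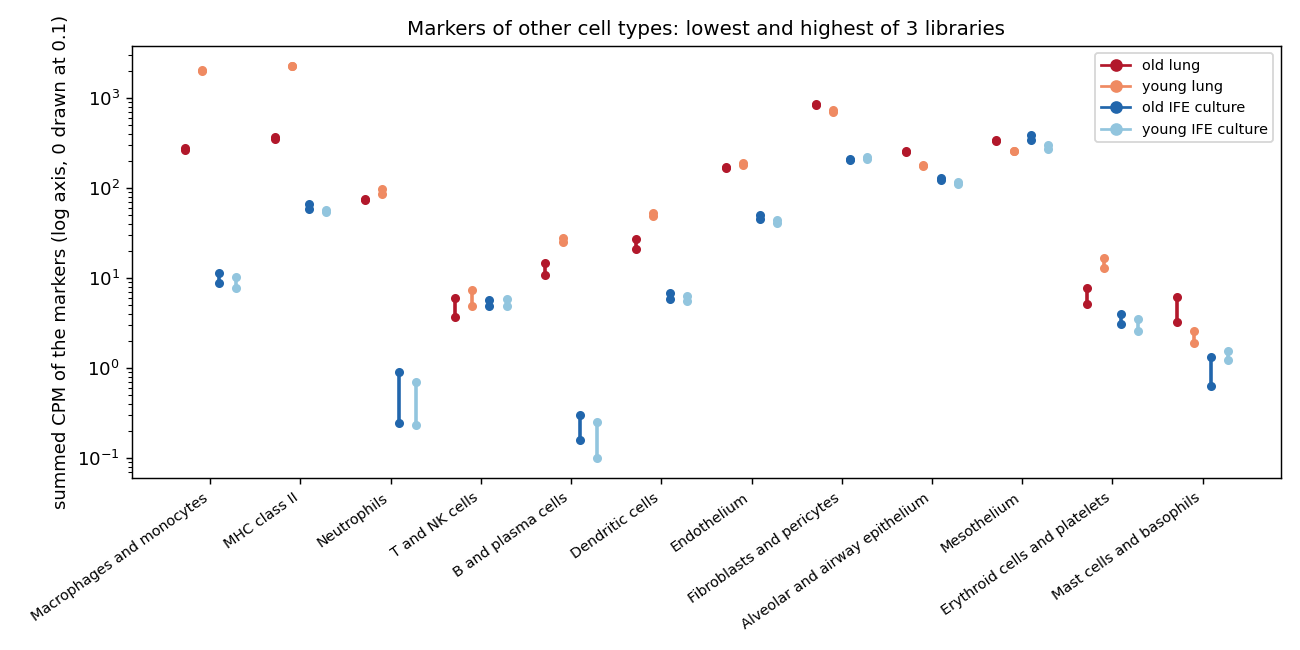
Summed CPM (y axis, log scale) of each list of cell type markers (x axis) as the lowest and highest of 3 libraries in the 4 groups. Macrophage markers reach at most 278.6 CPM in old lung and at least 1962 CPM in young lung, and stay at or under 11.5 CPM in old IFE culture.

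Of the gene programs, immediate early genes had the highest median fold change. Of 24 tested members, 22 were higher in lung past 2-fold, 1 was lower, and the median log2 fold change was 5.25, against -0.009 over all genes tested. Fos (ENSMUSG00000021250, chromosome 12, 85520664 to 85524047 in the file's coordinates), the AP-1 subunit, was at 1238, 1219 and 1228 CPM in the lung libraries and 1.59, 1.54 and 2.08 CPM in the culture libraries. Every lung library lay far above every culture library. The log2 fold change of Fos was 9.46 (SE 0.069), with an adjusted p of 1.35e-23 for 2-fold. Its relative Fosb was at 1984, 1908 and 1970.1 CPM in the lung libraries and 4.18, 3.08 and 2.63 CPM in the culture libraries. Egr1, a zinc finger factor induced by serum and growth factors, was at 1306, 1286 and 1313 CPM in the lung libraries and 7.19, 7.07 and 15.7 CPM in the culture libraries. Replicate 3 of the culture held the most Egr1 of its group, and the groups still lay far apart. The orphan nuclear receptor Nr4a1 was at 1112, 1088 and 1123 CPM in the lung libraries and 10.1, 10 and 10.6 CPM in the culture libraries, with a log2 fold change of 6.76 (SE 0.051). Its relatives Nr4a2 and Nr4a3 had log2 fold changes of 6.09 (SE 0.069) and 9.82 (SE 0.14).

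The list also holds genes that restrain the response. Zfp36, which destabilizes cytokine mRNA, was at 1008, 992 and 1002 CPM in the lung libraries and 15.4, 14.4 and 19.9 CPM in the culture libraries. Dusp1, a phosphatase of MAP kinases, was at 529, 523 and 538 CPM in the lung libraries and 8.83, 9.3 and 12 CPM in the culture libraries. Neither gene overlapped between the groups, with log2 fold changes of 5.91 (SE 0.10) and 5.72 (SE 0.08). The Kruppel-like factors Klf4 and Klf2 had log2 fold changes of 4.80 (SE 0.056) and 5.69 (SE 0.086), while Klf6 at 1.17 (SE 0.15) did not pass 2-fold (adjusted p = 0.227, and 3.92e-15 without replicate 3 of the culture). Jun, at 1419, 1384 and 1420.2 CPM in the lung libraries and 111, 109 and 169 CPM in the culture libraries, had a higher culture base than Fos and a log2 fold change of 3.44 (SE 0.21). Csrnp1, a nuclear protein induced by stress, was at 640.1, 641 and 629.7 CPM in the lung libraries and 9.94, 10.8 and 24.2 CPM in the culture libraries, again highest in replicate 3 of the culture. Myc was the exception. This transcription factor of growth was at 325, 324 and 325 CPM in the lung libraries and 874, 914 and 1060.5 CPM in the culture libraries, lower in every lung library, with a log2 fold change of -1.55 (SE 0.064).

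In the young libraries the log2 fold change of Fos was 9.30 and that of Egr1 7.77. The difference between the ages in this contrast was tested as an interaction over all 12 libraries, with 14318 genes tested. It was called at an adjusted p under 0.05 as more negative in old for 8.37% of these genes and as more positive for 9.1%. Of the 24 immediate early genes, 3 were more negative in old, among them Fosb by -0.46 log2 units and Klf2 by -0.55, and 7 were more positive, among them Zfp36 by 0.62. No interaction was called for Fos at 0.17 (adjusted p = 0.664) or for Egr1 at -0.74 (adjusted p = 0.193). The macrophage, class II, neutrophil and endothelial marker sums were lower in old than in young lung, as given above. Those of fibroblasts and of alveolar and airway cells were higher. The part of macrophage or other host RNA in these values was not tested.

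**Figure D3:**
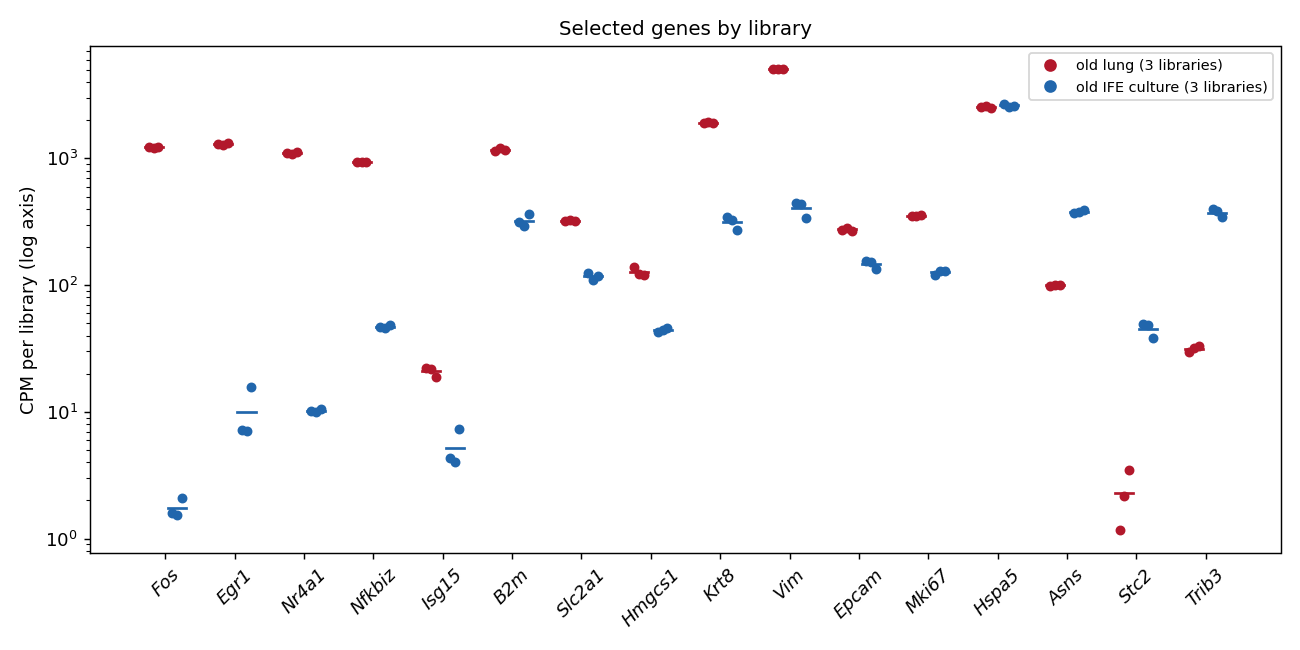
CPM per library (y axis, log scale) of 16 genes (x axis) in old lung (red) and old IFE culture (blue), with bars at the group means. Fos, Egr1 and Nr4a1 are far higher in lung than the at most 15.7 CPM in culture, Hspa5 lies at the same height in both, and Asns, Stc2 and Trib3 are lower in lung.

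NF-kB is the factor through which cytokines and bacterial products induce inflammatory genes. Of 23 tested members of its list, 16 were higher in lung past 2-fold, none was lower, and the median log2 fold change was 2.35. Its inhibitor Nfkbia was at 927, 907 and 886 CPM in the lung libraries and 101, 99.3 and 106 CPM in the culture libraries, a log2 fold change of 3.15 (SE 0.043). Nfkbiz, a relative of Nfkbia, was at 939, 932 and 941 CPM in the lung libraries and 46.6, 46.2 and 48.3 CPM in the culture libraries. Tnfaip3, which ends the signal by editing ubiquitin chains, was at 1573, 1608 and 1568 CPM in the lung libraries and 91.8, 96.3 and 118 CPM in the culture libraries. For all 3 genes every lung library was far above every culture library. Of the 4 listed genes of the factor's subunits, Rel was higher past 2-fold at 1.91 (SE 0.12), while Nfkb1 at 0.62 (SE 0.088), Nfkb2 at 0.11 (SE 0.11) and Relb at -0.21 (SE 0.17) were not past 2-fold. Tnf was at 15.4, 16.1 and 17.8 CPM in the lung libraries and 0, 0 and 0.0611 CPM in the culture libraries. With 1 count over the culture libraries, the ratio was 813 (exact 95% counting interval 145 to 32179). Socs3, a target and brake of STAT3, was at 269.5, 289 and 286 CPM in the lung libraries and 16.1, 15 and 18.1 CPM in the culture libraries. Icam1, an adhesion molecule for leukocytes, was at 108, 98.4 and 105 CPM in the lung libraries and 9.3, 7.14 and 32.3 CPM in the culture libraries. Replicate 3 of the culture was far above the other two, and Icam1 did not pass 2-fold (adjusted p = 0.0789), though it did without that library (adjusted p = 3.22e-42).

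Chemokines that attract neutrophils and monocytes were among the higher genes. Of 14 tested chemokines and colony stimulating factors, 8 were higher in lung past 2-fold and 1, Ccl20, was lower at under 5 CPM in every library. The call of Ccl20 was lost without replicate 1 or 3 of the lung (adjusted p = 0.0656 and 0.0846), and its log2 fold change of -2.71 was -4.36 without replicate 2 of the lung. The neutrophil chemokine Cxcl1 was at 1038, 1119 and 1066 CPM in the lung libraries and 35, 33.6 and 109.5 CPM in the culture libraries, with a log2 fold change of 4.17 (SE 0.58). The monocyte chemokine Ccl2 was at 105, 105 and 96.9 CPM in the lung libraries and 3.44, 3.01 and 5.01 CPM in the culture libraries, with a log2 fold change of 4.73 (SE 0.12). Cxcl2, close kin of Cxcl1, had a log2 fold change of 6.44 (SE 0.17), and Ccl7, close kin of Ccl2, was at 11.4 against 0.038 CPM on average. Cxcl1 and Ccl2 lay apart between the groups, although replicate 3 of the culture held far more Cxcl1 than the other two, and the call of Cxcl1 was lost without replicate 2 of the lung (adjusted p = 0.0503). Without replicate 3 of the culture its log2 fold change was 4.96. Csf3, the granulocyte growth factor that 4T1 tumours are known for, was at 455, 451 and 443 CPM in the lung libraries and 61, 57.5 and 118 CPM in the culture libraries. Its log2 fold change was 2.51 (SE 0.33) with an adjusted p of 0.0149, and its call was lost when any library but replicate 3 of the culture was left out (adjusted p 0.0515 to 0.06). Without that replicate the adjusted p was 1.31e-54. The macrophage growth factor Csf1 did not pass the test, at 337, 343 and 333 CPM in the lung libraries and 340.5, 327 and 589 CPM in the culture libraries. Cxcl16, which is both a chemokine and a scavenger receptor, had a log2 fold change of -1.41 (SE 0.33) and did not pass 2-fold.

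The NF-kB site is shown on the promoter of Nfkbia, since the gene is a standard readout of the factor. A match to GGG, any 2 bases and TTTCC on either strand was found within 250 bases before the start in 5 of 18 listed genes with a RefSeq promoter (27.8%) and in 173 of 9345 promoters of all tested genes (1.85%). The run below is the 200 bases before the start of transcription at chr12:55492648-55492847 (minus strand) of GRCm38.p6, read 5′ to 3′ on the gene's strand, with the match in capitals.
Nfkbia: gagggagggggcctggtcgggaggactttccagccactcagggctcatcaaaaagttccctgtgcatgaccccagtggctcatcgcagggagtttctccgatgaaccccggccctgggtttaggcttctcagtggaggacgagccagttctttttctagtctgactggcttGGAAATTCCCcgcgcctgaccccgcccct
A match in letters is a description of the sequence and does not show binding.

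Interferon-induced genes were higher in lung at modest levels. Of 34 tested members of the type I interferon list, 21 were higher past 2-fold and none was lower, with a median log2 fold change of 2.10. The count was 27 without replicate 3 of the culture and 11 by log2(FPKM + 1). Isg15, a ubiquitin-like modifier (ENSMUSG00000035692, chromosome 4, 156283912 to 156285253 in the file's coordinates), was at 22.1, 21.8 and 19 CPM in the lung libraries and 4.33, 3.99 and 7.33 CPM in the culture libraries. Ifit1, which binds foreign RNA, was at 11, 10.3 and 11.8 CPM in the lung libraries and 1.64, 2.17 and 3.36 CPM in the culture libraries, and Irf7, the factor that amplifies the response, at 27.8, 25.8 and 26.7 CPM in the lung libraries and 1.74, 1.19 and 3.36 CPM in the culture libraries. All 3 genes were higher in every lung library, with log2 fold changes of 2.00 (SE 0.18), 2.21 (SE 0.22) and 3.65 (SE 0.22). In each of them replicate 3 was the highest of the culture group. The RNA sensor Ddx58 had a log2 fold change of -0.69. The members with the lowest p past 2-fold were Stat2, a subunit of the factor that interferon activates, at 2.69, Ifi44 at 2.45 and Bst2, which tethers virus particles, at 1.59.

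The interferon response element, GAAA, any 2 bases and GAAA on either strand, was found within 250 bases before the start in 10 of 25 listed genes with a RefSeq promoter (40%) and in 301 of 9345 promoters of all tested genes (3.22%). The promoters of Isg15 and Ifit1 are shown because both genes are named above and both hold more than 1 match. They are the 200 bases before the start at chr4:156200819-156201018 (minus strand) and chr19:34640689-34640888 (plus strand) of GRCm38.p6, with all matches in capitals, which overlap in Isg15.
Isg15: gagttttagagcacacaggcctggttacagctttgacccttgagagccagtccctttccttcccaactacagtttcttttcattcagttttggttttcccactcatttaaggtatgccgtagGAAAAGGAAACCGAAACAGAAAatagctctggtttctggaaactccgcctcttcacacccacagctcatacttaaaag
Ifit1: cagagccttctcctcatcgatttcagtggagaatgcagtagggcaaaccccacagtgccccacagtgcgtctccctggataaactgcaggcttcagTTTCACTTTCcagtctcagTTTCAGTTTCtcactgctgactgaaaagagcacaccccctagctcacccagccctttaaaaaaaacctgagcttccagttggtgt

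Class I antigen presentation, which shows peptides of a cell to CD8 T cells, was higher in lung for most of the genes tested. Of 29 tested genes of class I presentation and the interferon gamma response, 21 were higher in lung past 2-fold, none was lower, and the median log2 fold change was 2.40. The light chain B2m was at 1144, 1199.9 and 1165 CPM in the lung libraries and 316, 290.5 and 363 CPM in the culture libraries, and the heavy chain H2-K1 at 328, 311 and 319 CPM in the lung libraries and 39.7, 35.2 and 65.8 CPM in the culture libraries. The peptide transporter Tap1 was at 126, 130.5 and 128 CPM in the lung libraries and 14.8, 13.6 and 25.7 CPM in the culture libraries and the immunoproteasome subunit Psmb9 at 52.9, 47.3 and 43.6 CPM in the lung libraries and 2.75, 1.61 and 6.17 CPM in the culture libraries. No group overlapped for any of the 4, with log2 fold changes of 1.85 (SE 0.074), 2.76 (SE 0.27), 2.82 (SE 0.25) and 3.75 (SE 0.39). Class I heavy chains have near-identical copies, so the split of reads among them is uncertain. The immunoproteasome subunit Psmb10 and the proteasome activator Psme2 did not pass 2-fold, at 0.92 and 0.65, though Psmb10 did without replicate 3 of the culture (adjusted p = 2.75e-13). Iigp1, a GTPase induced by interferon gamma, was at 59.4, 69.2 and 62.8 CPM in lung and had 2 counts over all culture libraries. Its ratio was 1589 (exact 95% counting interval 439 to 13127). The transcription factor Irf1 was at 473, 492 and 473 CPM in the lung libraries and 87.7, 78.6 and 77.4 CPM in the culture libraries, and the GTPase Igtp had a log2 fold change of 3.87 (SE 0.13).

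For the interferon and class I lists the interaction was called as more negative in old than in young for 19 of 34 and 15 of 29 members, against 8.37% of all genes, and as more positive for none. Tap1 had a log2 fold change of 2.82 in old and 4.07 in young (interaction adjusted p = 0.0125). These members moved with the macrophage markers, whose sum was 1962 to 2032 CPM in young lung and 265 to 279 CPM in old lung. The part of macrophage RNA in the difference was not tested.

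Genes of oxygen shortage and glucose use were higher in lung. Of 31 tested members, 16 were higher past 2-fold and none was lower, with a median log2 fold change of 1.45. The glucose transporter Slc2a1 was at 319, 324 and 319 CPM in the lung libraries and 124, 109.8 and 117 CPM in the culture libraries, and the growth factor of vessels Vegfa at 379.8, 397 and 398 CPM in the lung libraries and 106, 119 and 104 CPM in the culture libraries. Car9, the carbonic anhydrase that is a standard mark of hypoxia, was at 103, 113 and 103 CPM in the lung libraries and 5.71, 4.76 and 4.71 CPM in the culture libraries, and the oxygen sensor Egln3 at 216, 219 and 221 CPM in the lung libraries and 24.9, 22.9 and 27.9 CPM in the culture libraries. None of these overlapped between the groups, and the log2 fold changes were 1.45 (SE 0.048), 1.83 (SE 0.052), 4.38 (SE 0.091) and 3.11 (SE 0.064). Of the glycolytic enzymes, Aldoa, Tpi1 and Pfkl had log2 fold changes of 1.71, 1.78 and 1.71, all past 2-fold, while Pgk1 stayed at 0.063. Ldha, which makes lactate, was 1038 against 560.4 CPM on average, a log2 fold change of 0.89 (SE 0.034) that did not pass 2-fold. Slc2a3 was at 0.811, 1.67 and 1.36 CPM in lung and at 0 in culture, at least 21.7-fold higher against a floor of 3 counts over the culture group.

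Cholesterol synthesis, which is held down when sterols are plentiful, was higher in lung for most of the genes tested. Of 24 tested members, 15 were higher past 2-fold, none was lower, and the median log2 fold change was 1.45. By log2(FPKM + 1) and log2(FPKM + 0.1) the count was 8 and 10. Hmgcs1 (ENSMUSG00000093930, chromosome 13, 120151915 to 120169796 in the file's coordinates), an early enzyme of the pathway, was at 139, 123 and 121 CPM in the lung libraries and 42.6, 44.3 and 45.8 CPM in the culture libraries. Insig1, the sterol-regulated anchor of SREBP, was at 149, 155 and 146 CPM in the lung libraries and 20.4, 24.9 and 18.5 CPM in the culture libraries. Both were higher in every lung library, with log2 fold changes of 1.53 (SE 0.065) and 2.82 (SE 0.086). Sqle, which makes squalene epoxide, had 1.38 (SE 0.053). Sc5d and Dhcr7, enzymes of the last steps, had log2 fold changes of -0.10 and 0.45, neither past 2-fold. The contrast was more positive in old than in young for 8 of the 24 members, against 9.1% of all genes, among them Hmgcs1, at 1.53 and 1.02 (interaction adjusted p = 3.62e-05). Fatty acid synthesis did not follow: 1 of 13 tested genes, Srebf1, was past 2-fold, a call lost with library totals alone (adjusted p = 0.134), and the synthase Fasn had a log2 fold change of 0.41 (SE 0.036).

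The sterol response element, the letters TCACNCCA on either strand, was found within 250 bases before the start in 3 of 17 listed genes with a RefSeq promoter (17.6%) and in 364 of 9345 promoters of all tested genes (3.9%). The promoter of Hmgcs1 is shown as an example, at chr13:119690151-119690350 (plus strand) of GRCm38.p6, with the match in capitals.
Hmgcs1: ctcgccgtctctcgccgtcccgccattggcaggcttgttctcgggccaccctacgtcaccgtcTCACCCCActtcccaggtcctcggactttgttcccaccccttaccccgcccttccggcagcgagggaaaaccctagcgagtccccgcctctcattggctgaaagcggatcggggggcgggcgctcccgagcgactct

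The ATF4 program had the lowest median fold change of the gene programs. Of 30 tested members, 20 were lower past 2-fold and 2 were higher, with a median log2 fold change of -1.50. The 15 fits on counts other than that with a minimum of 2 CPM gave 19 to 22 lower members. Trib3, a pseudokinase induced by amino acid shortage, was at 29.5, 31.9 and 32.8 CPM in the lung libraries and 396, 382 and 343 CPM in the culture libraries. Asns, asparagine synthetase (ENSMUSG00000029752, chromosome 6, 7675169 to 7693254 in the file's coordinates), was at 98.4, 101 and 99.6 CPM in the lung libraries and 369, 378 and 388 CPM in the culture libraries. The alanine-forming aminotransferase Gpt2 was at 11, 12.3 and 14.3 CPM in the lung libraries and 185, 189 and 182 CPM in the culture libraries. No lung library reached any culture library for these 3 genes, with log2 fold changes of -3.57 (SE 0.064), -1.93 (SE 0.044) and -3.89 (SE 0.075). The folate enzyme Mthfd2 was at 45.9, 42.2 and 40.7 CPM in the lung libraries and 262, 270.0 and 286 CPM in the culture libraries, the cystine carrier Slc7a11 at 45.9, 45.4 and 51.7 CPM in the lung libraries and 149, 133 and 132 CPM in the culture libraries, and the alanyl tRNA synthetase Aars at 203, 204 and 201 CPM in the lung libraries and 1040.3, 1020.4 and 1056 CPM in the culture libraries. The 3 enzymes of serine synthesis did not move alike: Phgdh and Psat1 were lower past 2-fold at -1.13 and -1.46, and Psph was at -0.28. The call of Phgdh was lost by DESeq2 (adjusted p = 0.195). Ddit3 and Chac1, late genes of this response, had log2 fold changes of -2.05 (SE 0.071) and -2.09 (SE 0.089). The mRNA of Atf4, a factor set mainly by translation, was at 332, 343 and 346 CPM in the lung libraries and 545, 557 and 619 CPM in the culture libraries, lower in lung but not past 2-fold.

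Fgf21, a hormone induced by ATF4, was at 0 in all lung libraries and at 2.17, 1.47 and 1.22 CPM in culture. The 2 members that were higher, Atf3 and Cebpb, are also induced by growth factors and cytokines, with log2 fold changes of 2.02 (SE 0.043) and 1.58 (SE 0.052). Stc2, a secreted glycoprotein induced by the same stress and on no list, was at 1.17, 2.18 and 3.49 CPM in the lung libraries and 49.4, 48.5 and 38.1 CPM in the culture libraries, with a log2 fold change of -4.30 (SE 0.24). Chaperones of the endoplasmic reticulum, on a separate list, did not fall and were mostly higher by small amounts, with a median log2 fold change of 0.68. At an adjusted p under 0.05, 17 of 22 were higher, against 37.8% of all genes, and 3 were lower. Of 22 tested members 2 were higher past 2-fold, none was lower and 17 had intervals within 2-fold. The chaperone Hspa5 was at 2568, 2590.5 and 2519.7 CPM in the lung libraries and 2691, 2559.9 and 2595 CPM in the culture libraries, with a log2 fold change of -0.034 (SE 0.03) and groups that overlapped. The members past 2-fold were the disulfide isomerase Pdia6 at 2.07 and the chaperone Calr at 1.13, whose call was lost with library totals alone (adjusted p = 0.826). The contrast was more negative in old than in young for 15 of the 22, against 8.37% of all genes.

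The CARE element bound by ATF4 and its partners, the letters TGATGNAA on either strand, was found within 250 bases before the start in 8 of 26 listed genes with a RefSeq promoter (30.8%) and in 226 of 9345 promoters of all tested genes (2.42%). The promoter of Asns, where this element is well known, is shown at chr6:7693210-7693409 (minus strand) of GRCm38.p6 with the match in capitals.
Asns: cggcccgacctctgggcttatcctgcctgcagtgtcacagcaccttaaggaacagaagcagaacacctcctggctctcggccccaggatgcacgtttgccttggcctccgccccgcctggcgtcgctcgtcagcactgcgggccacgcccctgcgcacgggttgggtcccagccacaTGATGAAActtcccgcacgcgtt

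Mesenchymal genes and matrix genes were higher in lung, and keratins were too. Of 14 tested mesenchymal genes, 12 were higher past 2-fold and none was lower. Vim, the intermediate filament vimentin (ENSMUSG00000026728, chromosome 2, 13578738 to 13587637 in the file's coordinates), was at 5032, 5078 and 5044 CPM in the lung libraries and 442, 437 and 337 CPM in the culture libraries. The matrix protein Fn1 was at 11584, 11645 and 11618 CPM in the lung libraries and 3066, 3051 and 3038 CPM in the culture libraries. Both groups lay apart, with log2 fold changes of 3.64 (SE 0.13) and 1.93 (SE 0.025). The transcription factors Snai1 and Twist1 were at 111 against 22.8 CPM and 91.5 against 23.4 CPM on average, both past 2-fold. Of 9 tested keratins 6 were higher past 2-fold and 1 was lower. The stress keratin Krt16 had a log2 fold change of 5.84 (SE 0.22). Krt18, the partner of Krt8, was at 1152, 1209 and 1169 CPM in the lung libraries and 329.9, 315 and 288 CPM in the culture libraries, and the basal keratin Krt14 at 90.6, 94.1 and 93.5 CPM in the lung libraries and 10.5, 9.51 and 10 CPM in the culture libraries. Epithelial junction genes went the other way in part, with 5 of 32 lower past 2-fold, 3 higher (1 by log2(FPKM + 1)) and a median of -0.40. The splicing regulator of epithelia Esrp1 was at 73.7, 64 and 75.6 CPM in the lung libraries and 332, 336 and 300.1 CPM in the culture libraries, with a log2 fold change of -2.19 (SE 0.065). Rab25, a trafficking protein of epithelia, was lower at -1.89, while the plakin Ppl was higher at 3.33. Pdgfra, a growth factor receptor of mesenchyme that fibroblasts also carry, had 3.13 (SE 0.075).

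Collagens and their crosslinking enzymes were higher in lung. Of 17 tested collagens 11 were higher past 2-fold and none was lower, and of 20 laminin, elastic fibre and crosslinking genes 15 were higher and none was lower. By log2(FPKM + 1) these counts were 7 and 5. Col6a1 was at 570.0, 574 and 556 CPM in the lung libraries and 8.93, 7.35 and 6.66 CPM in the culture libraries and Col1a1 at 121, 102 and 111 CPM in the lung libraries and 1.59, 1.33 and 1.41 CPM in the culture libraries. The basement membrane collagen Col4a2 had a log2 fold change of -0.088 (SE 0.042). Col18a1, also of basement membrane, was higher at 1.78 (SE 0.041). The laminin chain Lama5 had 1.52 (SE 0.036) and the crosslinking enzyme Loxl3 5.09 (SE 0.083). Eln, which encodes elastin, was at 29, 26.7 and 24.6 CPM in lung and was listed in the lung table alone. Among fibroblast markers, Dcn was at 12.8, 13.5 and 13 CPM in the same lung libraries and was listed in the lung table alone, whereas Postn was lower in lung, as given above. Col1a1 is itself on that marker list. The part of fibroblast RNA in the collagen values was not tested.

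Matrix proteases and their inhibitors were higher in lung for 15 of 21 tested members and lower for 1, Adam12. The count was 9 higher by log2(FPKM + 1). Mmp3, the protease stromelysin, was at 189, 217 and 197 CPM in the lung libraries and 8.41, 6.86 and 9.47 CPM in the culture libraries, and the plasminogen activator Plau at 590.3, 600.3 and 598 CPM in the lung libraries and 92.7, 87.7 and 164 CPM in the culture libraries. Replicate 3 of the culture held the most Plau of its group, and the groups did not overlap. The log2 fold changes were 4.60 (SE 0.089) and 2.37 (SE 0.29), and the call of Plau was lost when any lung library or replicate 1 of the culture was left out (adjusted p 0.0515 to 0.0535). The membrane protease Mmp14 and the Plau receptor Plaur had 1.88 (SE 0.044) and 1.70 (SE 0.049). Of 23 genes of TGF-beta signalling 15 were higher and none was lower past 2-fold. Its ligand Tgfb1 was at 91.3, 85.7 and 88.3 CPM in the lung libraries and 18.4, 24.3 and 22.1 CPM in the culture libraries, and Id3, a target of the related BMP signal, at 362, 354 and 362 CPM in the lung libraries and 15.1, 16.7 and 15.5 CPM in the culture libraries. Of 14 integrins 6 were higher, led by the collagen receptor Itga1 at 99.8, 96.9 and 96.4 CPM in the lung libraries and 1.59, 2.52 and 1.59 CPM in the culture libraries. Itgb4, a laminin receptor chain, and Itga5, a fibronectin receptor chain, had 2.11 (SE 0.05) and 2.37 (SE 0.069). Ltbp2, also on the TGF-beta list, had 1.99 (SE 0.048). YAP and TAZ targets gave no direction, with 3 of 19 higher and 2 lower. Among them Ccn1 had a log2 fold change of 3.32 (SE 0.23) and its relative Ccn2 of 0.49 (SE 0.087). Nt5e, which makes adenosine, was higher at 1.64, and the pathway members Wwc1 and Ajuba were lower at -1.89 and -1.62.

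Targets of the glucocorticoid receptor were higher in lung for 12 of 19 tested members and lower for none, with a median log2 fold change of 1.87. The kinase Sgk1 was at 828, 844 and 829.6 CPM in the lung libraries and 37.8, 37.6 and 42.8 CPM in the culture libraries, the chaperone Fkbp5 at 242, 242 and 241 CPM in the lung libraries and 70.3, 63 and 65.2 CPM in the culture libraries and the clock gene Per1 at 241, 241 and 249 CPM in the lung libraries and 30.8, 33.7 and 40.3 CPM in the culture libraries. The log2 fold changes were 4.40 (SE 0.052), 1.87 (SE 0.051) and 2.80 (SE 0.077), with no overlap between the groups. Tsc22d3, the target most used as a readout of the hormone, was at 81.6, 75.9 and 69.7 CPM in the lung libraries and 47, 38.7 and 37.1 CPM in the culture libraries, and at 0.88 (SE 0.087) it was not past 2-fold. The receptor Nr3c1 was lower, with a log2 fold change of -1.15 (SE 0.054), a call lost without replicate 2 of the lung (adjusted p = 0.073) and by DESeq2 (adjusted p = 0.285). Several members of this list, among them Dusp1, Nfkbia, Lcn2 and Cebpd, also answer to growth factors or NF-kB. In the clock, Per1 and Per2 were higher and Arntl, Cry1 and Ciart were lower, with log2 fold changes of 2.80, 1.75, -1.59, -1.52 and -2.93. Bhlhe40, a repressor in the clock that stress also induces, was at 535, 522 and 519 CPM in the lung libraries and 120.3, 122 and 133 CPM in the culture libraries. No hour of collection is stated in the labels.

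Of 18 tested cytosolic heat shock genes, 8 were higher in lung past 2-fold and 1, Hspa4, was lower. The counts were 5 and 3 by log2(FPKM + 1), 6 and 4 by log2(FPKM + 0.1), and 0 to 3 lower over the 15 fits on counts named above, the call of Hspa4 being lost by DESeq2 (adjusted p = 0.265). Hspa8, the constitutive Hsp70, was at 2922, 2993 and 2916 CPM in the lung libraries and 367, 329 and 329 CPM in the culture libraries, and the stress-induced Hspa1b at 343, 343 and 371 CPM in the lung libraries and 21.2, 18 and 15.6 CPM in the culture libraries. The log2 fold changes were 3.10 (SE 0.042) and 4.26 (SE 0.086). Hspa1b has a near-identical copy, Hspa1a, so their split is uncertain. The call of Hspa1a was lost by DESeq2 (adjusted p = 0.0919). Dnajb1, the partner of Hsp70, had 2.00 (SE 0.064), and the abundant Hsp90ab1 had 1.28 (SE 0.036). The mitochondrial chaperones Hspd1 and Hspe1 had -0.98 (SE 0.035) and -0.99 (SE 0.05), neither past 2-fold.

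Housekeeping programs differed little in size. Of 48 tested ribosomal protein genes 44 had intervals within 2-fold, although 39 were lower at an adjusted p under 0.05, against 37.2% of all genes. Their median log2 fold change was -0.51. The member past 2-fold was Rpl30 at -1.46, against 4 lower by log2(FPKM + 1). For 29 of the 48 the contrast was more positive in old than in young, against 9.1% of all genes. Pseudogene copies make the single ribosomal values uncertain. Of 40 genes of the respiratory chain 37 were within 2-fold, with a median of -0.28, and 2, Uqcrq and Cycs, were lower past 2-fold. Of 31 proteasome genes 29 were within 2-fold, and 1, Psmd13, was higher at 1.14, a call lost without replicate 1 or 2 of either group (adjusted p 0.0528 to 0.145), by DESeq2 (adjusted p = 0.3) and with library totals alone (adjusted p = 0.783). Genes of mitosis were higher as a group by small amounts: 30 of 34 were higher at an adjusted p under 0.05, against 37.8% of all genes, and 4 were past 2-fold, with a median of 0.72. By log2(FPKM + 1) and log2(FPKM + 0.1), 0 and 2 were past 2-fold. Mki67, the proliferation marker, was at 350.3, 353 and 359.7 CPM in the lung libraries and 120.0, 129.6 and 129 CPM in the culture libraries, with a log2 fold change of 1.49 (SE 0.046). Ncapd2, of condensin, and the cyclin Ccnb2 had 1.30 (SE 0.056) and 1.53 (SE 0.074). Genes of DNA replication gave no common direction, with 19 of 35 higher and 11 lower at that threshold. Past 2-fold were Uhrf1 at 1.37, Pold1 at 1.18 and Gins2 at 1.56, the call of Pold1 being lost without replicate 2 or 3 of the lung (adjusted p = 0.053 and 0.0516), by DESeq2 (adjusted p = 0.131) and with library totals alone (adjusted p = 0.409). By either FPKM scale none of the list was higher past 2-fold and 1 was lower. The cell cycle inhibitor Cdkn1a was at 108, 109 and 112 CPM in the lung libraries and 17.1, 16.7 and 16.6 CPM in the culture libraries, a log2 fold change of 2.70 (SE 0.067), while cyclin D1, Ccnd1, had 0.69 (SE 0.037). Cyclin D2, Ccnd2, and the p53 target Zmat3 were lower, at -1.97 (SE 0.054) and -1.79 (SE 0.076).

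Lysosomal proteins were higher past 2-fold for 10 of 28 tested members and lower for 1, with a median log2 fold change of 0.76. The protease Ctsd was at 401, 406 and 391 CPM in the lung libraries and 106, 103 and 85.4 CPM in the culture libraries, with a log2 fold change of 2.02 (SE 0.069), whereas the membrane protein Lamp1 had -0.16 (SE 0.037). The protease Ctsl, the saposin precursor Psap and the cholesterol carrier Npc2 had 1.62, 1.58 and 1.60. The contrast was more negative in old than in young for 17 of the 28, against 8.37% of all genes. Macrophages also express lysosomal genes, and their part in these values was not tested. Of 9 tested complement genes 5 were higher and none was lower past 2-fold, C3 being at 179.7, 179.7 and 181 CPM in the lung libraries and 52.5, 51.5 and 83 CPM in the culture libraries without passing it (adjusted p = 0.0556, and 2.64e-24 without replicate 3 of the culture). C4b and C1ra were at 55.9 against 0.105 CPM and 11.8 against 0.677 CPM on average. Of 20 genes of actin and the cytoskeleton under SRF, a factor that actin controls, 6 were higher and none was lower, and cytoplasmic actin Actg1 was at 2592, 2649.5 and 2565 CPM in the lung libraries and 635, 638 and 651 CPM in the culture libraries. Actb and Tagln2 had 1.29 and 1.23. By log2(FPKM + 1) the counts of higher lysosomal, complement and actin genes were 6, 2 and 1. NRF2 targets were mixed, with 7 of 20 higher (4 by log2(FPKM + 1)) and 2 lower, among them the heme enzyme Hmox1 at 50.8, 52.9 and 49.1 CPM in the lung libraries and 175, 164 and 145 CPM in the culture libraries. The sugar nucleotide enzyme Ugdh and the peroxiredoxin Prdx1 had 2.04 and 1.23. Of 14 genes of iron handling 3 were higher and 2 lower, and the transferrin receptor Tfrc was at 169, 160.5 and 173 CPM in the lung libraries and 176, 182 and 194 CPM in the culture libraries, a log2 fold change of -0.14 (SE 0.05). The copper-bearing ferroxidase Cp was at 923, 915 and 913 CPM in the lung libraries and 34.2, 27.3 and 31.7 CPM in the culture libraries. Trf, the iron carrier transferrin, was at 25.8 against 0.0407 CPM on average. Of 10 tested EGF family genes 4 were higher and 2 lower (1 and 0 by log2(FPKM + 1)), and the ligand Areg was at 197, 192 and 193 CPM in the lung libraries and 34.4, 35.3 and 36.8 CPM in the culture libraries. The ligand Tgfa was higher at 1.27, a call lost with library totals alone (adjusted p = 0.084), and Nrg1 lower at -1.74. Fatty acid oxidation gave 2 of 18 higher and 1 lower, and the group of D cyclins, CDK inhibitors and p53 targets 2 of 17 higher and 3 lower. Of the former, Ucp2 and Angptl4 were at 1.74 and 1.98, and the thioesterase Acot2 at -3.51. Txnip and Arrdc4, the arrestins that sense glucose, had log2 fold changes of 0.51 (SE 0.066) and 0.43 (SE 0.16), neither past 2-fold.

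Other genes were named for size alone. Among genes with a culture level of 5 CPM or more that are on no marker list and averaged no higher in young than in old lung, the 12 widest rises held 3 outside the groups above. These were Crip1, a small LIM domain protein, Npnt, a matrix ligand of integrins, and Arhgap18, a GTPase-activating protein. Crip1 was at 208, 221 and 217 CPM in the lung libraries and 7.35, 5.81 and 5.38 CPM in the culture libraries, Npnt at 647, 651 and 653 CPM in the lung libraries and 31.8, 29 and 23.4 CPM in the culture libraries and Arhgap18 at 118, 111 and 119 CPM in the lung libraries and 6.5, 6.37 and 5.32 CPM in the culture libraries. Among genes nearly silent in culture, Mgp, an inhibitor of calcification, was at 124, 117 and 126 CPM in lung and had 1 count in culture. Its ratio was 6051 (exact 95% counting interval 1085 to 239046). Ly6a, at 96.2, 92.4 and 93.1 CPM in lung with 2 counts in culture, had a ratio of 2320.3 (exact 95% counting interval 642 to 19167). Angpt1, a ligand of the endothelial receptor Tek, was at 61.2, 62.5 and 60.7 CPM and F13a1, a clotting factor subunit of macrophages and platelets, at 61, 68.6 and 60.4 CPM, each with 2 counts in culture. Sparcl1 was at 30.2, 31.3 and 24.5 CPM in lung and at 0 in culture, at least 475-fold higher against the same floor of 3 counts. H2-Ab1, a class II chain, was at least 352-fold higher, and the macrophage lysozyme Lyz2 had a ratio of 1877 (exact 95% counting interval 519 to 15507).

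The widest falls were ranked among genes with a mean of 10 CPM or more over the 6 libraries. Tlcd4 was at 0.901, 1.82 and 0.597 CPM in the lung libraries and 48.1, 39.9 and 44.4 CPM in the culture libraries, Angptl6, a secreted angiopoietin-like protein, at 0.811, 1.16 and 2.13 CPM in the lung libraries and 56.3, 50.1 and 45.9 CPM in the culture libraries and Cdsn, an adhesion protein of cornified epithelium, at 1.53, 1.96 and 1.88 CPM in the lung libraries and 65.5, 67.5 and 37 CPM in the culture libraries. The log2 fold changes were -5.26 (SE 0.20), -5.21 (SE 0.18) and -4.97 (SE 0.41). Mal2, which sorts membrane proteins in polarized epithelia, was at 4.33, 4.44 and 4.77 CPM in the lung libraries and 80.7, 80.9 and 90.5 CPM in the culture libraries, and Adh7, an alcohol dehydrogenase of epithelia, at 2.88, 2.18 and 3.67 CPM in the lung libraries and 56.9, 51.6 and 49.3 CPM in the culture libraries. Stbd1, which tethers glycogen, was at 15.5, 16.6 and 14.5 CPM in the lung libraries and 219, 207 and 202 CPM in the culture libraries. The 3 other genes of the widest 12 that lie outside the groups above, Fam171b, Reep6 and Tmem266, had log2 fold changes of -4.36 (SE 0.34) for Fam171b and -3.76 (SE 0.20) for Tmem266, and Reep6 was at 1.85 against 29.4 CPM on average. In Tlcd4, Angptl6, Cdsn, Mal2, Adh7 and Stbd1 every lung library lay below every culture library. Wnt7a, a secreted Wnt ligand, was at 8.02, 11.1 and 12.3 CPM in the lung libraries and 43.9, 41.6 and 41.7 CPM in the culture libraries, with a log2 fold change of -2.01 (SE 0.12).

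The same contrast in the young libraries called 17.2% of its genes higher and 7.49% lower past 2-fold. Of the 1864 genes higher in old that were tested in both ages, 1700 (91.2%) were also past 2-fold higher in young, and of 848 lower genes 677 (79.8%) were also lower. No gene was past 2-fold in opposite directions. The interaction test called 17.8% of the 1920 genes higher in old as more negative in old than in young and 7.19% as more positive, and left 75% without a call. Of the 864 genes lower in old it called 7.99% as more negative and 11.1% as more positive, and of all 13526 genes tested in old 8.61% and 9.61%. A gene without a call is not shown to be alike in both ages.

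Some genes were named for a low interaction p among those past 2-fold in old. Cd74, the invariant chain of class II molecules, was at 231, 244 and 234 CPM in the lung libraries and 47.1, 44.4 and 52.8 CPM in the culture libraries, a log2 fold change of 2.29 in old and 5.17 in young (interaction adjusted p = 6.64e-21). It averaged 1436 ± 8.63 CPM (SD, n = 3) in young lung and 236 ± 6.76 CPM in old lung. The lysosomal protease Lgmn, the crosslinking enzyme Tgm2 and the semaphorin Sema7a had log2 fold changes of 1.12, 1.52 and 2.40 in old and 2.49, 2.63 and 4.39 in young. Lgmn lost its 2-fold call in old when replicate 1 or 3 of the lung or replicate 1 or 2 of the culture was left out (adjusted p 0.0646 to 0.182), by DESeq2 (adjusted p = 0.361) and with library totals alone (adjusted p = 1). The gap of Adam12, a membrane protease, was narrower in old, with -1.82 in old and -3.90 in young (interaction adjusted p = 7.41e-16). Its means were 29 ± 1.18 CPM in old lung and 6.43 ± 0.434 CPM in young lung, against 102 ± 9.51 and 96.6 ± 2.13 CPM in the matching cultures (SD, n = 3 each). The contrast of the matrix protein Tnc was wider in old, with 2.61 in old and 1.39 in young.

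**Figure D4:**
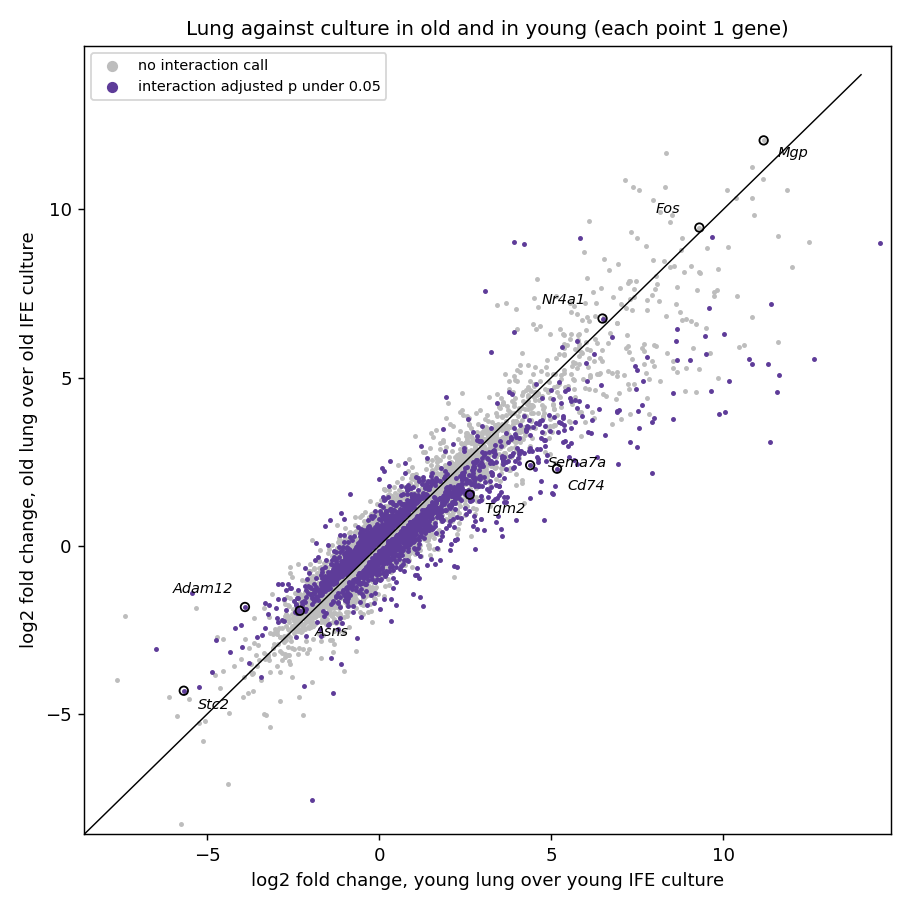
Log2 fold change of lung over culture in young (x axis) and in old (y axis), each point 1 gene. The line marks equal values, and purple points had an interaction adjusted p under 0.05. Cd74 lies below the line and Adam12 above it, while Fos and Mgp carry no interaction call.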

How the data were processed

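For each setting the authors deposited raw gene counts, the same divided by a size factor per library (normalized signal), and FPKM. Per the submitters' processing notes the tools included DESeq2 (no version), HISAT2 2.0.5 and featureCounts 1.5.0-p3, listed without roles. Those notes name a human build while the rows are mouse Ensembl genes, so the build behind the coordinates remains unstated. The protocol describes stranded and unstranded libraries without saying which was made, so antisense and overlapping genes are uncertain. The deposited counts lacked in vivo young replicate 3, whose reads were recovered from the normalized signal (100% whole within 0.001). It enters only the comparisons with young.

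The 6 old libraries were fitted alone (edgeR 4.0.16, R 4.3.3, filterByExpr, TMM, quasi-likelihood F-test with robust dispersion), with adjustment by Benjamini-Hochberg over 13526 genes. The filter keeps a gene through either group. glmTreat tested against 2-fold. The interaction used all 12 libraries. Values per library use TMM sizes of the 12 libraries. Intervals and floors cover counting error only. On simulated counts the test against 2-fold made no false call, while the test against no change made more false calls than its threshold states. Counts given at an adjusted p under 0.05 alone may hold such false calls. The simulation changed few genes and gave both groups the same variation, unlike these data, so it cannot show the error rates here. Alternatives were limma 3.58.1 on log2(FPKM + 0.1 or 1), DESeq2 1.42.0 and others given at the end. Promoter sequences come from RefSeq (GRCm38.p6), matched by symbol.

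The comparison, gene lists and named genes were chosen with earlier results of these data known. Genes were named by rank of fold change among protein-coding genes past 2-fold whose groups do not overlap, by lowest p within each list (up to 3), from a fixed set, and by lowest interaction p (6 genes). Some genes that this rule names are not reported here. Other list members named were chosen after their values were seen. Values are missing for genes in 1 table only, which count as 0 in marker sums. The design text also describes a human line, not analysed here.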

Additional observations from a re-analysis of the deposited data

Results flagged for a closer look

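The difference between lung and culture differed between the ages, at an adjusted p under 0.05 in the interaction test of edgeR over the 12 libraries, for 96 of the 227 genes named in the text and tested in it, against 17.5% of all genes. The genes were named for their difference in old and in part for the interaction itself, so this share is a description. Values are the log2 fold change of lung over culture in old minus that in young. For 50 genes the value was below 0. Those of C4b, Ciita, Csf1r, Fgf21 and Selp are uncertain in size, since at least 1 group in each averaged near 0 CPM. The values were Actg1 -0.20, Aldoa -0.23, Areg -0.28, B2m -0.53, Bhlhe40 -0.34, Bst2 -1.10, C3 -0.98, C4b -5.55 and Calr -0.58. Others were Car9 -0.65, Cd14 -2.26, Cd74 -2.86, Chac1 -0.47, Ciita -3.12, Col6a1 -0.56, Cp -0.33, Csf1r -5.24 and Cxcl16 -1.28. Further values were Cxcl2 -2.21, Egln3 -0.38, Fgf21 -5.61, Flt1 -0.37, Fosb -0.46, Gpt2 -0.44, Hmox1 -0.72, Ifi44 -0.77 and Igtp -2.01. Next came Irf1 -0.26, Irf7 -0.88, Isg15 -0.76, Klf2 -0.55, Lamp1 -0.22, Lgmn -1.36, Ltbp2 -0.40, Nfkb2 -0.44 and Npc2 -0.29. Then came Pdia6 -0.27, Per1 -0.39, Pfkl -0.30, Pold1 -0.30, Psap -0.76, Psmb9 -2.42, Selp -2.08, Sema7a -1.98 and Sgk1 -0.33. Others were Stat2 -1.16, Tap1 -1.23, Tgfb1 -0.39, Tgm2 -1.10 and Ucp2 -0.51. For 46 genes the value was above 0. The values were Adam12 2.09, Adh7 1.04, Asns 0.39, Atf3 0.15, Atf4 0.26, Ccn2 1.03, Cdh1 0.26, Col18a1 0.30 and Col4a2 0.37. Others were Dnajb1 0.38, Epcam 0.78, Esrp1 0.66, Fkbp5 0.34, Fn1 0.18, Gsn 0.27, Hmgcs1 0.52, Hsp90ab1 0.24 and Hspa1b 0.85. Further values were Hspa8 0.20, Id3 0.67, Insig1 0.38, Klf4 0.27, Krt18 0.50, Lama5 0.13, Msln 0.28, Myc 0.29 and Nfkbia 0.30. Next came Nr4a1 0.28, Nr4a2 0.35, Phgdh 0.22, Postn 0.54, Psat1 0.25, Psph 0.47, Rab25 0.83, Slc7a11 0.42 and Sqle 0.31. Then came Stc2 1.38, Tfrc 0.23, Tmem266 1.10, Tnc 1.23, Tsc22d3 0.42, Txnip 0.57, Uhrf1 0.22, Wnt7a 1.24 and Wwc1 0.28. The last was Zfp36 0.62.

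Some named genes were listed in the lung table alone and entered no comparison. Their mean levels in old lung were 16.6 CPM for C1qa, 7.91 CPM for Cdh5, 13.1 CPM for Dcn, 26.8 CPM for Eln, 389 CPM for H19 and 36.8 CPM for Ibsp. A gene not listed in the culture table has no value there. Neither table listed a gene with 0 counts in all of its libraries.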

How the results depend on the processing

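The groups share replicate numbers, but libraries of the same number did not deviate together (correlations of deviations 0.00886, -0.0139 and 0.0204), so the numbers were not taken as pairs. With the replicate block the counts were 10020 called, 2731 past 2-fold, 7306 within 2-fold and 2401 with an interaction, and Csf3, Cxcl1 and Plau lost their 2-fold call (adjusted p = 0.0818, 0.0738 and 0.0673). Leaving out each library gave 9702 to 10399 called genes, 2606 to 2887 past 2-fold, 7026 to 7384 within 2-fold and 1946 to 2985 interactions. The count past 2-fold was 1698 with a minimum of 2 CPM in each group, which tested 10912 genes, 1463 by limma on log2(FPKM + 1), 5164 against a fold of 1.5 and 914 against a fold of 4. DESeq2 called 2171 genes past 2-fold, all among the 2784. The median of all genes shifted by -0.1351 (log2) with library totals alone, by -0.2841 with log2(FPKM + 0.1) and by -0.2665 with log2(FPKM + 1). The share of called genes that were higher was 50.4%, 42.9% with library totals and 35.5% by FPKM. Past 2-fold it was 69%, 60.1% with library totals, and 51.6% and 50.8% by log2(FPKM + 0.1) and log2(FPKM + 1). Both FPKM scales shifted the median as given above, and log2(FPKM + 1) also understates low genes. By log2(FPKM + 1) 35 named genes lost their 2-fold call, among them Isg15, Ifit1, Hmgcs1, Slc2a1 and Mki67, and Cdh1 gained it. By log2(FPKM + 0.1) 17 lost the call. With library totals 7 lost it (Calr, Srebf1, Psmd13, Pold1, Tgfa, Flt1 and Lgmn), and with DESeq2 7 (Psmd13, Pold1, Nr3c1, Lgmn, Hspa1a, Hspa4 and Phgdh). Values near 0 changed sign for Hspa5 (0.0094 with the 2 CPM minimum), Csf1 (-0.4713 to 0.009 on leaving out each library, above 0 only without replicate 3 of the culture), Pgk1 (-0.0721 with library totals, -0.2236 and -0.2228 by FPKM) and Nfkb2 (-0.025, -0.1665 and -0.1643 by the same alternatives). The medians of fatty acid oxidation, proteasome, DNA replication, D cyclins, YAP, NRF2, heat shock and iron lists changed sign under some alternatives. Causes were not tested. Depth limits genes at a few counts in culture, of which 32 tested genes had none.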

Other observations

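The genes named here were chosen after their values were seen. Dmp1, a matrix protein of bone, was at 199, 189 and 193 CPM in the lung libraries and 0.476, 0.07 and 0 CPM in the culture libraries, with a log2 fold change of 9.85 (SE 0.22). Spp1, which encodes osteopontin, was at 2925, 3018 and 2962 CPM in the lung libraries and 122, 114 and 91.1 CPM in the culture libraries, and Pthlh, the parathyroid hormone-like peptide, at 158, 137 and 145 CPM in the lung libraries and 1.69, 0.909 and 1.77 CPM in the culture libraries. The log2 fold changes were 4.77 (SE 0.13) and 6.61 (SE 0.12), and no lung library overlapped a culture library for any of the 3. Ibsp, bone sialoprotein, was at 37.4, 36.2 and 36.6 CPM in lung and was listed in the lung table alone, as was H19, an imprinted non-coding RNA, at 388, 394 and 385 CPM. Il11, a cytokine that acts on bone and stroma, was at 88.7, 95.8 and 90.7 CPM in the lung libraries and 0.74, 1.19 and 1.96 CPM in the culture libraries. In young lung these genes averaged 139 ± 1.33 CPM for Dmp1, 2976 ± 20.9 CPM for Spp1, 146 ± 1.33 CPM for Pthlh and 108 ± 1.14 CPM for Il11 (SD, n = 3).

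Ace, angiotensin-converting enzyme, was at 198, 181 and 194 CPM in the lung libraries and 1.06, 0.7 and 0.183 CPM in the culture libraries, and the water channel Aqp1 at 245, 235 and 242 CPM in the lung libraries and 0.74, 0.909 and 0.672 CPM in the culture libraries. The log2 fold changes were 8.14 (SE 0.18) and 8.28 (SE 0.092). The endothelial markers Cdh5 and Pecam1 were at 8.29, 7.93 and 7.5 CPM and 9.46, 9.67 and 8.27 CPM in the same lung libraries. Pecam1 averaged 0.236 CPM in culture and was higher in lung past 2-fold, and Cdh5 was listed in the lung table alone. The surfactant protein Sftpc was at 44.3, 46.3 and 41.8 CPM in lung and at 0.159, 0 and 0.306 CPM in culture. The part of host cells in these values was not tested.

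In all, 4209 genes were listed in the lung table alone, of which 25 reached 10 CPM in old lung and which together took 0.2% to 0.204% of its counts. The 1848 genes listed in the culture table alone took 0.0102% to 0.0108% of counts there, and none reached 10 CPM.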
